A study of Mus musculus with 9 samples.

Results

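Creb5, Ldhd, Tnfrsf8 and Gfod1 are the 4 genes whose transcripts differed from control in opposite directions when Fam60a and when Sin3a was depleted from mouse embryonic stem cells. They were picked from the measured values, so their differences from control are a description and carry no test. Of 37990 genes listed, 14465 were tested and 277 were called in both knockdowns, and these 4 are all of the genes called in both with opposite signs. Creb5, Ldhd and Tnfrsf8 were higher in the Fam60a knockdown and lower in the Sin3a knockdown than in control, and Gfod1 showed the reverse.

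The study sequenced total RNA of E14, a mouse embryonic stem cell line grown in serum with leukaemia inhibitory factor. Fam60a knockdown cells stably carried a pLKO.1 lentiviral short hairpin RNA against Fam60a, Sin3a knockdown cells one against Sin3a, and control cells, titled T2SC, a scrambled, non-targeting hairpin. Each group had 3 libraries, called biological replicates in the labels, and all 9 cultures had been transduced with lentivirus in Polybrene and selected with puromycin. The labels do not say whether lines were clones, whether more than 1 hairpin was used per gene, or whether same-numbered libraries were handled together.

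SIN3A is a scaffold that brings histone deacetylases to DNA-bound repressors, among them the MXD proteins, which bind the E-box CACGTG together with MAX. FAM60A, encoded by a gene named Sinhcaf in GENCODE M21, is a subunit of that complex. Creb5 encodes a leucine zipper transcription factor of the ATF2 and ATF7 subfamily that binds cyclic AMP response elements. Ldhd encodes the mitochondrial D-lactate dehydrogenase, which oxidises D-lactate, a product of methylglyoxal detoxification, to pyruvate. Tnfrsf8 encodes CD30, a receptor of the tumour necrosis factor superfamily that signals through TRAF adaptors to NF-kB and, in humans, marks Hodgkin lymphoma and embryonal carcinoma cells. Gfod1 encodes a protein of the Gfo/Idh/MocA oxidoreductase family whose activity is poorly characterised.

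Promoter sequences from RefSeq (GRCm38.p6) matched 3 of the 4 genes, Creb5, Ldhd and Tnfrsf8, and are shown because all 3 hold a short motif there. No sequence was matched for Gfod1, the gene of the other direction, so the motif cannot be compared between directions. Each run begins 250 bases before the RefSeq start site and stops before the first transcribed base annotated by RefSeq or GENCODE M21. Capitals mark the E-box CACGTG, the cyclic AMP response element TGACGTCA and the AP-1 motif TGANTCA, which were chosen for the search after the sequences had been seen and which read the same on both strands.
Creb5 (chr6:53287053-53287269, plus strand): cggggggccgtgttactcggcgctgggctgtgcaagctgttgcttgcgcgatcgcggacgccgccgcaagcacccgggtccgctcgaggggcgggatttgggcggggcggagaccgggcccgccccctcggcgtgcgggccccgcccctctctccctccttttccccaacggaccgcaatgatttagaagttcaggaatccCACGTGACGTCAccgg
Ldhd (chr8:111630375-111630586, minus strand): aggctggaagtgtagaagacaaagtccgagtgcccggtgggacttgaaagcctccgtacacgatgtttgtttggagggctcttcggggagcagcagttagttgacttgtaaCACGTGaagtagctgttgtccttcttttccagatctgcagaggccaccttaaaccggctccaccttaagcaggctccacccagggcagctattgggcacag
Tnfrsf8 (chr4:145315165-145315414, minus strand): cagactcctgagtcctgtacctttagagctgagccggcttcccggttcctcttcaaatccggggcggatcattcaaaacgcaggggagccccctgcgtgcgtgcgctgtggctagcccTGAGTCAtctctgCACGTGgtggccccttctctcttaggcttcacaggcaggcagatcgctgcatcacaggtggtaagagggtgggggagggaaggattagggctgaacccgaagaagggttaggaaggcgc

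The E-box CACGTG lay at -49 to -44 from the start site of Creb5, at -139 to -134 of Ldhd and at -119 to -114 of Tnfrsf8. Of 32851 RefSeq windows of 250 bases before a start, 6.02% held this motif, and of the 13855 windows of tested genes 8.24%. In Creb5 the element TGACGTCA, the class of site that the CREB5 protein itself binds, lay at -45 to -38 and shared its first bases with the E-box. This element was in 1.55% of all windows and in 2.49% of those of tested genes. Tnfrsf8 had the AP-1 letters TGAGTCA at -132 to -126, and a window before a second, inner start of Creb5 had TGACTCA at -45 to -39 and no E-box. TGANTCA was found in 6.75% of all windows and in 4.25% of those of tested genes. Because the motifs were chosen from these same sequences, the shares over all windows are no test of their presence in the 3 genes. These are matches of letters, and binding at them was not measured.

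The hairpin targets fell in their own knockdowns. Fam60a transcripts averaged 5.73 ± 0.75 CPM (TMM-scaled counts per 1000000 reads) in the Fam60a knockdown, 15.6 ± 2.66 CPM in the Sin3a knockdown and 13.5 ± 0.47 CPM in control (SD, n = 3 each). Sin3a transcripts averaged 217 ± 9.9 CPM with Fam60a depleted, 126 ± 13.4 CPM with Sin3a depleted and 287 ± 21.9 CPM in control. The log2 fold change was -1.23 ± 0.23 for Fam60a in its knockdown (SE, edgeR adjusted p = 0.028, range over alternatives 3.68e-05 to 0.133, lost on leaving out any 1 library except Sin3a knockdown replicate 3) and -1.19 ± 0.11 for Sin3a in its own (adjusted p = 0.00149). Library totals lay between 2607872 and 7674887 reads. The lowest was Sin3a knockdown replicate 3, with the next at 5511453, and 3 reads, the most that a count of 0 allows, were worth 1.22 CPM in it and 0.385 to 0.557 CPM in the others. Without this library far more genes were called in all 3 comparisons (16.9, 24.5 and 14.7% against 2.92, 10.2 and 3.06% in the Fam60a knockdown, the Sin3a knockdown and between them). The fold changes of Creb5, Ldhd, Tnfrsf8 and Gfod1 and several counts of calls are therefore also given without it. For other genes, Znrf1, Atf2 and Gfod2 among them, the fold change in the Sin3a knockdown is given only with this library.

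Markers of the labelled cell type were present: the summed level of 8 embryonic stem cell genes was 1122 to 1288 CPM in the Fam60a knockdown, 1293 to 1419 CPM in the Sin3a knockdown and 1304 to 1462 CPM in control, and 0 of the 8 was called in either comparison with control (edgeR; 1 and 0 at an unadjusted p under 0.05, 0 and 0 by DESeq2). The sums hide shifts of single genes in Sin3a knockdown replicate 3. In replicates 1, 2 and 3 of that knockdown, Pou5f1 measured 131, 152 and 316 CPM and Nanog 152, 161 and 95.9 CPM. Zfp42 and Dppa5a were also highest in its replicate 3, Klf4, Esrrb and Tdgf1 also lowest, and Sox2 lay in between. Primitive endoderm genes summed to 1613 to 2352 CPM over 8 genes in the Fam60a knockdown, 1860 to 3005 CPM in the Sin3a knockdown and 691, 892 and 1723 CPM in control replicates 1, 2 and 3. Control replicate 3 thus stood apart from the other controls. The median log2 fold change of the 8 genes was 1.08 and 1.23 in the Fam60a and Sin3a knockdowns, positive in both, and 0 and 1 of the 8 were called (0 and 12.5%, against 2.92 and 10.2% over all tested genes, by edgeR; 3 and 6 at an unadjusted p under 0.05, 2 and 5 by DESeq2). With the replicate block 4 and 7 were called, and 5 and 6 without control replicate 3, with medians of 1.96 and 2.12. The 1 called, Gata6, a regulator of that lineage, measured 57, 61 and 137 CPM in control and had a log2 fold change of 1.29 ± 0.30 with Sin3a depleted (adjusted p = 0.029, range over alternatives 1.69e-05 to 0.108). Its call was lost on leaving out 6 of the 9 libraries in turn, and without control replicate 3 its log2 fold change was 1.86. Among the 4 genes described here, the log2 fold changes without control replicate 3 were 2.01 and -1.81 for Creb5, 1.51 and -1.15 for Ldhd, 0.94 and -0.88 for Tnfrsf8 and -1.31 and 0.81 for Gfod1 in the Fam60a and Sin3a knockdowns. Fibroblast genes summed to 40.5 to 56.2, 22.1 to 56.9 and 47.1 to 91.1 CPM in the Fam60a knockdown, the Sin3a knockdown and control, with 0 and 1 of 4 tested called (0 and 25%, by edgeR; 1 and 2 at an unadjusted p under 0.05, 0 and 2 by DESeq2). The part of these cells in the results was not tested, and in bulk RNA fewer cells of a type and less RNA per cell cannot be told apart.

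The choice turned on a Benjamini-Hochberg adjusted p under 0.05 in both comparisons with control. All 4 genes met it by the rule, while over all tested genes 2.92% were called with Fam60a depleted (1.49% higher and 1.44% lower) and 10.2% with Sin3a depleted (3.91% higher and 6.28% lower). By sign alone, called or not, 15.2% of tested genes were higher with Fam60a and lower with Sin3a depleted, and 17.6% the reverse. Genes called in both made up 1.91% and those called with opposite signs 0.0277%, and the choice of the 4 genes fixes this last count. The remaining genes called in both moved the same way, 122 higher and 151 lower, and both comparisons share the control libraries. Just inside the threshold stood Tnfrsf8, whose larger adjusted p was 0.0378. Just outside stood Cerk (ceramide kinase) with 0.056, Efemp2 (fibulin-4, an elastic fibre protein) with 0.0613 and Pglyrp1 (a peptidoglycan recognition protein) with 0.075. Their log2 fold changes in the Fam60a and Sin3a knockdowns were 0.95 and -0.92 for Cerk, 1.16 and -0.75 for Efemp2 and 2.18 and -1.89 for Pglyrp1, so the genes next to the threshold have fold changes of similar size to those inside it.

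**Figure D1:**
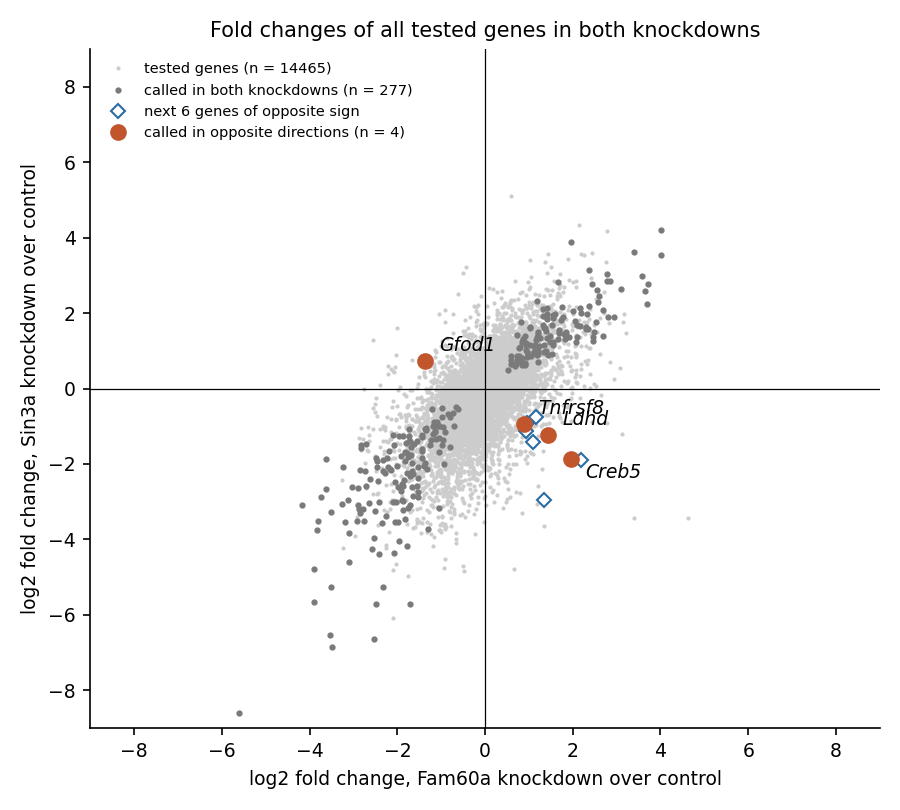
Log2 fold changes of all 14465 tested genes in the Fam60a knockdown over control (horizontal) and the Sin3a knockdown over control (vertical), with the 277 genes called in both in dark grey, the 4 genes called with opposite signs in orange and the next 6 genes of opposite sign as open diamonds. Gfod1 lies alone at the upper left, at -1.37 and 0.72, while Creb5, Ldhd and Tnfrsf8 lie at the lower right among the open diamonds.

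Creb5 (ENSMUSG00000053007, GRCm38 chromosome 6, 53287270 to 53700376, plus strand) had the widest spread between groups of the 4 on a log scale. It measured 10.9, 18.1 and 13.3 CPM in the Fam60a knockdown, 0.762, 1.3 and 0.812 CPM in the Sin3a knockdown and 2.44, 4.63 and 3.72 CPM in control (replicates 1 to 3). Every Fam60a knockdown library stood above every control library and every Sin3a knockdown library below them, with no overlap of groups. The 4 genes were chosen on these same libraries, which favours such separation in each of them. Its share over all tested genes is not given here. The mean was 391% of control with Fam60a depleted and 26.6% of control with Sin3a depleted. The log2 fold change over control was 1.96 ± 0.34 with Fam60a depleted and -1.87 ± 0.42 with Sin3a depleted (SE). Reads were few on the low side: the Sin3a knockdown held 5, 7 and 2 reads of Creb5, and the exact Poisson 95% interval of replicate 3 ran from 0.0984 to 2.93 CPM, which covers counting error only and reaches above the lowest control library.

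Ldhd (ENSMUSG00000031958, GRCm38 chromosome 8, 111623785 to 111630374, minus strand) measured 22.4, 20.4 and 16.1 CPM in the Fam60a knockdown, 3.35, 3.53 and 2.03 CPM in the Sin3a knockdown and 6.19, 7.81 and 7.75 CPM in control. The 3 groups again did not overlap, and the lowest Fam60a knockdown library stood well above the highest control library. The means were 271% and 41% of control, with log2 fold changes of 1.43 ± 0.26 and -1.23 ± 0.29 in the Fam60a and Sin3a knockdowns. In reads the Fam60a knockdown held 148, 159 and 102, the Sin3a knockdown 22, 19 and 5, and control 38, 54 and 52. The last 2246 bases of Ldhd overlap Znrf1, a ubiquitin ligase gene on the opposite strand. Znrf1 measured 77.5, 89.3 and 83.3 CPM in the Fam60a knockdown, 58.7, 65.2 and 137 CPM in the Sin3a knockdown and 55.4, 70.3 and 59.9 CPM in control, and did not pass the test in either (log2 fold change 0.43 ± 0.29, adjusted p = 0.603, and 0.48 ± 0.30, adjusted p = 0.347). The library with the highest Znrf1 level, Sin3a knockdown replicate 3, had the lowest Ldhd level. The libraries were stranded, per the labels, and the deposited counts are marked with the counter's setting for reversely stranded reads. The part of the overlap in either level was not tested.

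Tnfrsf8 (ENSMUSG00000028602, GRCm38 chromosome 4, 145267137 to 145315164, minus strand) was the most even of the 4 within the Sin3a knockdown. It measured 35.6, 42.2 and 37.2 CPM in the Fam60a knockdown, 11.3, 10.4 and 10.6 CPM in the Sin3a knockdown and 17.8, 23 and 21.8 CPM in control. Replicate 3 of the Sin3a knockdown, the shallowest library, lay between the other libraries of its group. The means were 184% and 51.6% of control, and the log2 fold changes 0.88 ± 0.18 and -0.95 ± 0.19 in the Fam60a and Sin3a knockdowns. CD30 is best known from activated lymphocytes, but Ptprc, the pan-leukocyte gene CD45, had 1, 2 and 1 reads in the Fam60a knockdown and 0 reads in each library of the Sin3a knockdown and of control. The 8 haematopoietic markers summed to 32.1 to 37.2 CPM in the Fam60a knockdown, 9.1 to 13.8 CPM in the Sin3a knockdown and 33.9 to 43.5 CPM in control. Spi1, a myeloid transcription factor among them, measured 22.5, 17.6 and 24.5 CPM in the Fam60a knockdown, 1.83, 2.6 and 9.75 CPM in the Sin3a knockdown and 9.61, 8.1 and 7 CPM in control, and did not pass against control (log2 fold change 1.38 ± 0.50, adjusted p = 0.2, and -0.95 ± 0.54, adjusted p = 0.309). Of the other tested markers, Itgam, Cd3e and Gata1 (integrin, T cell receptor and erythroid factor genes) were lower in both knockdowns. Their log2 fold changes in the Fam60a and Sin3a knockdowns were -2.84 and -1.49, -1.36 and -2.14, and -1.26 and -2.68. The B cell receptor gene Cd79a had the signs of Tnfrsf8, at 0.30 and -2.38 (edgeR adjusted p = 0.8 and 0.00665). Between the knockdowns Cd79a was higher in the Fam60a knockdown, by 2.68 ± 0.37 (adjusted p = 0.0102, range over alternatives 0.000109 to 0.0747). Of the 5 tested, 1 (Itgam) fell with Fam60a depleted and 4 (all but Spi1) fell with Sin3a depleted, with medians of -1.26 and -2.14. These are shares of 20 and 80%, against 1.44 and 6.28% called lower over all tested genes. Leaving out 1 library at a time gave 0 to 4 called with Fam60a depleted and 2 to 5 with Sin3a depleted. The highest counts, 4 and 5, came without Sin3a knockdown replicate 3, the library of that group with the most Spi1. All 5 tested markers, Spi1 included, were then called with Sin3a depleted. The part of other cells in the Tnfrsf8 levels was not tested.

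Gfod1 (ENSMUSG00000051335, GRCm38 chromosome 13, 43195245 to 43304172, minus strand) ran the other way. It measured 21.8, 23.6 and 18.2 CPM in the Fam60a knockdown, 85.1, 81.5 and 106 CPM in the Sin3a knockdown and 55.1, 51.6 and 58 CPM in control. All Fam60a knockdown libraries stood below control and all Sin3a knockdown libraries above it. The means were 38.6% and 165% of control, and the log2 fold changes -1.37 ± 0.16 and 0.72 ± 0.16 in the Fam60a and Sin3a knockdowns. Gfod1 was also the best covered, with 443 reads over the Fam60a knockdown, 1257 over the Sin3a knockdown and 1084 over control. Without Sin3a knockdown replicate 3, its highest library, the log2 fold change in the Sin3a knockdown was 0.60.

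**Figure D2:**
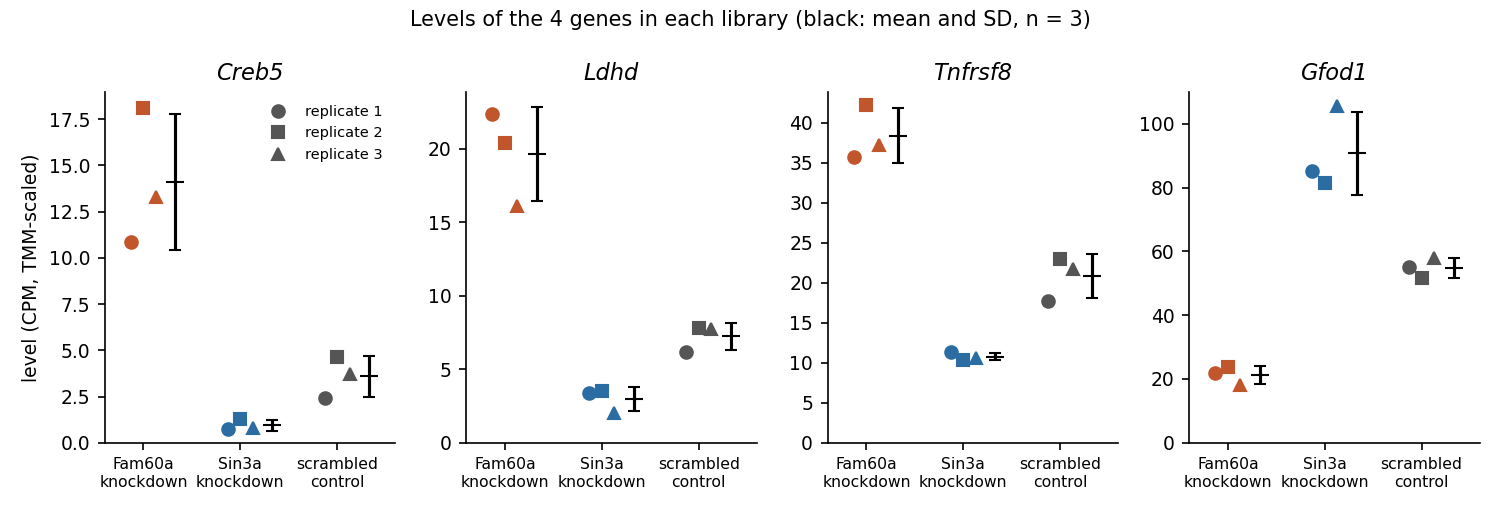
Level of each gene in CPM (vertical, TMM-scaled, from 0) in the 3 libraries of the Fam60a knockdown, the Sin3a knockdown and the scrambled control, with symbols for the replicate number and black bars for the mean and SD (n = 3). Creb5, Ldhd and Tnfrsf8 step from high to low to intermediate across the groups, Gfod1 from low to high to intermediate, and no group overlaps another in any panel. The genes were chosen on these same libraries, which favours such separation, and the share of all tested genes with it is not given here.

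The order of the groups was thus the same in 3 genes and reversed in Gfod1, with control in the middle each time. As the groups did not overlap in the libraries used to choose the genes, the sign was the same in every same-numbered triple. The differences by triple are given as a description only. For Creb5 the Fam60a knockdown minus control difference in log2 CPM was 2.02, 1.89 and 1.75 in replicates 1, 2 and 3, and the Sin3a knockdown minus control difference -1.35, -1.61 and -1.83. For Gfod1 the first of these was -1.33, -1.12 and -1.65, and the second 0.62, 0.66 and 0.86. Ldhd and Tnfrsf8 lay between 0.76 and 1.80 in the Fam60a knockdown and between -1.78 and -0.64 with Sin3a depleted. Set side by side, the knockdowns were further from each other than either was from control: the Fam60a knockdown over Sin3a knockdown log2 fold change was 3.83 ± 0.41 for Creb5, 2.67 ± 0.29 for Ldhd, 1.83 ± 0.19 for Tnfrsf8 and -2.09 ± 0.17 for Gfod1. This difference follows from how the genes were chosen.

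Scaled by the length of merged exons, the 4 genes differed in their level in control cells. Gfod1 stood at 7.61 ± 0.44 CPM per kb in control, Tnfrsf8 at 6.02 ± 0.79, Ldhd at 1.36 ± 0.17 and Creb5 at 0.144 ± 0.044 (SD, n = 3). Against 14126 tested genes with a length these levels were at the 40th, 34.8th, 12.8th and 0.524th percentile, so all lay in the lower part of the range. The merged exons of Creb5 span 25.021 kb, against 5.328, 3.459 and 7.208 kb in Ldhd, Tnfrsf8 and Gfod1, and unused annotated exons would lower its value. In the Fam60a knockdown the order was Tnfrsf8 (11.1 CPM per kb), Ldhd (3.68), Gfod1 (2.94) and Creb5 (0.563), and in the Sin3a knockdown Gfod1 (12.6), Tnfrsf8 (3.11), Ldhd (0.558) and Creb5 (0.0383). The GC content of the longest annotated transcript was 43.8% in Creb5 and 52.6 to 54.1% in the other 3.

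The calls that define these genes rested on few libraries, while their fold changes moved little. Over 15 other ways of fitting, the log2 fold change of Creb5 lay between 1.74 and 2.20 in the Fam60a knockdown and between -2.14 and -1.62 in the Sin3a knockdown, and that of Gfod1 between -1.45 and -1.21 and between 0.60 and 0.84 in the same order of knockdowns. Ldhd lay between 1.33 and 1.62 and between -1.32 and -1.01, and Tnfrsf8 between 0.80 and 0.97 and between -1.02 and -0.84. Without the shallow replicate 3, the log2 fold change in the Sin3a knockdown was -1.82 for Creb5, -1.07 for Ldhd and -0.94 for Tnfrsf8. The number of genes called with opposite signs, 4 in the fit described, was 11 with the replicate number as a block and 58 without Sin3a knockdown replicate 3, and all 4 genes were among them both times. It was 1 without Fam60a knockdown replicate 1, 1 without Fam60a knockdown replicate 2 and 2 without Fam60a knockdown replicate 3. Of the Sin3a knockdown libraries, dropping replicate 1 left 0 such genes and dropping replicate 2 left 1. Dropping any 1 of the 3 controls left 0. Gfod1 was the gene kept in each of those 4 fits with a count above 0, joined by Ldhd without Fam60a knockdown replicate 3.

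**Figure D3:**
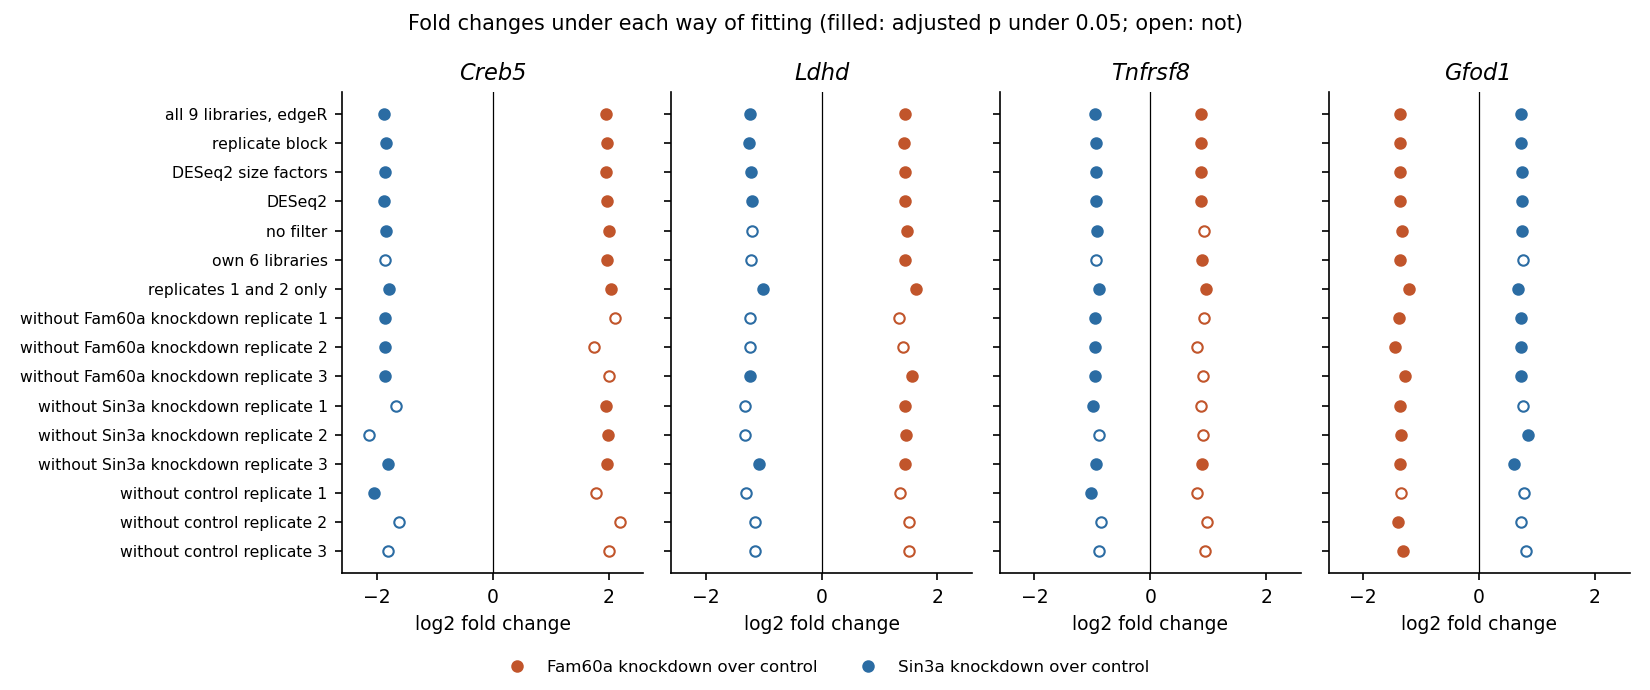
Log2 fold change of each gene (horizontal) in the Fam60a knockdown (orange) and the Sin3a knockdown (blue) over control for 16 ways of fitting (rows), with filled points for an adjusted p under 0.05 and open points otherwise. The points form near-vertical columns on opposite sides of 0, while the filling changes from row to row: all 8 points are filled without Sin3a knockdown replicate 3 and 1 of 8 without control replicate 2.

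The genes around each of the 4 were compared next, taking the nearest 2 annotated protein-coding genes on each side. Of 16 such neighbours 14 were tested, and 0 were called with Fam60a depleted and 1 with Sin3a depleted (edgeR; 3 and 2 at an unadjusted p under 0.05, 1 and 2 by DESeq2), with median log2 fold changes of -0.004 and 0.087. The shares called, 0 and 7.14%, were below the 2.92 and 10.2% over all tested genes, so the neighbours as a group did not exceed that background. The neighbour that fell was Tnfrsf1b, the gene of TNF receptor 2, which lies 20.3 kb from Tnfrsf8 on the same strand. It measured 47.7, 49.7 and 23.6 CPM in the Fam60a knockdown, 29.4, 31.8 and 21.9 CPM in the Sin3a knockdown and 83.6, 73.3 and 60.2 CPM in control. Its log2 fold change in the Sin3a knockdown was -1.37 ± 0.29 (adjusted p = 0.021, range over alternatives 9.46e-05 to 0.084). Leaving out replicate 1 of the Sin3a knockdown, or replicate 1 or 2 of control, ended the call. In the Fam60a knockdown, where Tnfrsf8 was higher than control, Tnfrsf1b had a log2 fold change of -0.84 ± 0.29 (adjusted p = 0.171, or 0.037 with the replicate block).

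Tril, the gene of a Toll-like receptor accessory protein that lies 115 kb beyond Creb5, had values of the opposite pattern to Creb5. It measured 10.6, 11.5 and 8.38 CPM in the Fam60a knockdown, 24.1, 23.2 and 33.3 CPM in the Sin3a knockdown and 17.9, 18.9 and 15.6 CPM in control. Neither difference from control passed by edgeR on all 9 libraries (log2 fold change -0.78 ± 0.23, adjusted p = 0.115, and 0.61 ± 0.23, adjusted p = 0.129). DESeq2 called both, at -0.78 and 0.62. The difference in the Fam60a knockdown was also called on the 6 libraries compared, with replicates 1 and 2 only and without Sin3a knockdown replicate 3. The Fam60a knockdown was lower than the Sin3a knockdown, by a log2 fold change of -1.39 ± 0.23 (adjusted p = 0.019, range over alternatives 1e-06 to 0.114), a call lost on leaving out 6 of the 9 libraries in turn. Cpvl, a carboxypeptidase gene on the far side of Tril, had 1.38 ± 0.32 in the Fam60a knockdown (adjusted p = 0.0594, or 0.0437 with the replicate block). Zfp1, a zinc finger gene 13 kb from Ldhd, stayed near control, with 0.03 ± 0.12 and -0.06 ± 0.12. Beside Gfod1, the Rab GTPase regulator Tbc1d7 had 0.04 ± 0.27 and -0.25 ± 0.27, and Sirt5, a mitochondrial desuccinylase gene, -0.16 ± 0.22 and 0.25 ± 0.23, in the Fam60a and Sin3a knockdowns.

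**Figure D4:**
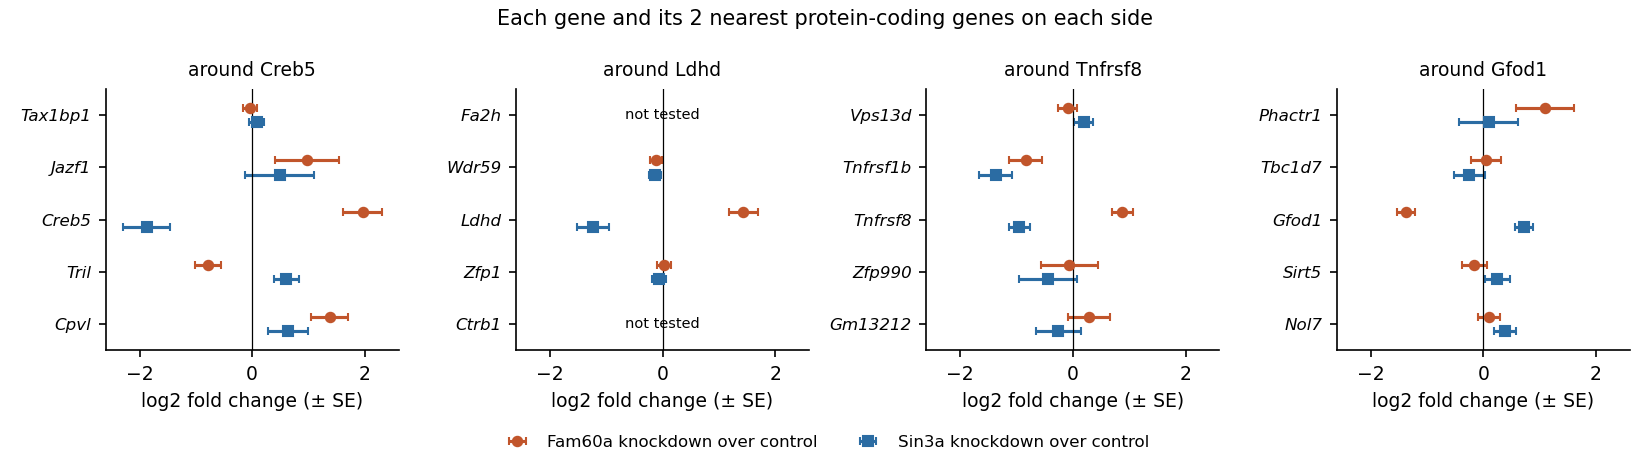
Log2 fold change with its SE (horizontal) of each of the 4 genes and its nearest 2 protein-coding genes on each side, in genome order, in the Fam60a knockdown (orange circles) and the Sin3a knockdown (blue squares) over control. Beside Creb5 the colours of Tril are swapped, at -0.78 and 0.61, while Zfp1 beside Ldhd lies near 0, at 0.03 and -0.06.

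The pathways around the 4 genes were read from 5 lists with 73 tested genes. Among leucine zipper partners and coactivators of CREB5, 0 of 16 tested genes were called in the Fam60a knockdown, in the Sin3a knockdown or between the knockdowns by edgeR (1, 3 and 0 at an unadjusted p under 0.05, and 1, 3 and 0 called by DESeq2). Their median log2 fold changes were 0.11, 0.22 and 0.01, against -0.02, -0.01 and 0.01 over all tested genes. The shares called by edgeR over all tested genes were 2.92, 10.2 and 3.06%, at which a list of 16 would hold few calls. Atf2, the closest relative measured, averaged 156 ± 2.38 CPM in the Fam60a knockdown, 113 ± 61 CPM in the Sin3a knockdown and 164 ± 4.13 CPM in control and did not pass (log2 fold change -0.07 ± 0.36 and -0.52 ± 0.36, adjusted p = 0.988 and 0.405). Atf7 was not analysed here.

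Around Ldhd, in lactate, methylglyoxal and 2-hydroxy acid metabolism, 1 of 18 tested genes fell with Fam60a depleted, 2 fell with Sin3a depleted, and 0 rose. These are shares of 5.56 and 11.1%, against 2.92 and 10.2% over all tested genes. Ldhc, the testis form of L-lactate dehydrogenase, fell to 2.29 ± 0.35 CPM in the Fam60a knockdown and 1.59 ± 0.74 CPM in the Sin3a knockdown, against 7.96 ± 1.08 CPM in control. Its log2 fold changes were -1.78 ± 0.33 (adjusted p = 0.0282, range over alternatives 0.000286 to 0.12) and -2.24 ± 0.36 (adjusted p = 0.00726). Slc16a3, a lactate exporter, fell in the Sin3a knockdown to 77.8 ± 14 CPM, against 118 ± 11.8 CPM in control (log2 fold change -0.61 ± 0.16, adjusted p = 0.0455, or 0.0644 with the replicate block, range over alternatives 0.000205 to 0.203). Ldha and Ldhb, the main L-lactate dehydrogenase subunits, did not pass in either knockdown. Ldha averaged 105 ± 10.3, 137 ± 29.3 and 114 ± 8.55 CPM in the Fam60a knockdown, the Sin3a knockdown and control. Ldhb averaged 38.7 ± 15.1, 65.4 ± 5.26 and 81.9 ± 7.7 CPM in the same groups, so it was lower in the Fam60a knockdown, where Ldhd was higher, without passing the test (adjusted p = 0.0711).

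Around Tnfrsf8, the CD30 ligand gene Tnfsf8 had 0 reads in all 9 libraries. Of 17 tested genes of CD30 adaptors and NF-kB signalling, 0 were called in the Fam60a knockdown by edgeR (5 at an unadjusted p under 0.05 and 3 by DESeq2). In the Sin3a knockdown 1 fell. The shares were 0 and 5.88%, against 2.92 and 10.2% over all tested genes. Between the knockdowns 2 of 17 were called, both higher in the Fam60a knockdown, a share of 11.8% against 3.06% over all tested genes. Birc3, an inhibitor of apoptosis that binds TRAF2, measured 17.4, 17.7 and 21.8 CPM in the Fam60a knockdown and 7.01, 6.69 and 6.5 CPM in the Sin3a knockdown, with control at 13.2, 12.3 and 14.6 CPM. Its log2 fold change was 1.49 ± 0.22 in the Fam60a knockdown over the Sin3a knockdown (adjusted p = 0.0122, range over alternatives 2.66e-07 to 0.0879) and -0.98 ± 0.22 in the Sin3a knockdown over control (adjusted p = 0.0233, range over alternatives 0.0015 to 0.0881). Traf1, a TRAF adaptor of CD30, measured 16.3, 20.3 and 13.8 CPM in the Fam60a knockdown and 4.88, 6.5 and 8.53 CPM in the Sin3a knockdown, with control at 7.98, 9.4 and 10.3 CPM. Its log2 fold change in the Fam60a knockdown over the Sin3a knockdown was 1.37 ± 0.29 (adjusted p = 0.0399, range over alternatives 0.000267 to 0.16). Birc3 in control lay between the knockdowns without overlap, as Tnfrsf8 did, while the Traf1 levels of control and of the Sin3a knockdown overlapped. Birc3 is named because it was called in these libraries, which favours such separation, and its share over all tested genes is not given. Against control, Birc3 had 0.50 ± 0.21 in the Fam60a knockdown (adjusted p = 0.267), and Traf1 had 0.86 ± 0.27 and -0.51 ± 0.29 in the Fam60a and Sin3a knockdowns (adjusted p = 0.138 and 0.305). The Birc3 difference between the knockdowns was no longer called without replicate 1 or 2 of either knockdown, and that of Traf1 without any 1 library other than Sin3a knockdown replicate 3. Traf2 had 0.18 ± 0.17 in the Fam60a knockdown and did not pass in any comparison.

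Of 19 other tested TNF receptor genes, 2 rose with Fam60a depleted, 1 rose and 2 fell with Sin3a depleted, and 2, Ngfr and Tnfrsf1a, were higher in the Fam60a than in the Sin3a knockdown. The shares were 10.5, 15.8 and 10.5%, against 2.92, 10.2 and 3.06% over all tested genes. Tnfrsf1a, TNF receptor 1, rose in the Fam60a knockdown to 57.4 ± 3.66 CPM, against 25.7 ± 3.54 CPM in control (log2 fold change 1.16 ± 0.20, adjusted p = 0.0192, range over alternatives 1.14e-06 to 0.113), and was at 30.8 ± 6.89 CPM in the Sin3a knockdown. Tnfrsf10b, a death receptor, rose in the Fam60a knockdown by 0.73 ± 0.15 on the log2 scale (adjusted p = 0.0379, range over alternatives 0.000299 to 0.18). Ngfr, the p75 neurotrophin receptor, fell in the Sin3a knockdown to 38.8 ± 9.68 CPM, against 88.8 ± 5.38 CPM in control (log2 fold change -1.21 ± 0.18, adjusted p = 0.00537). Fas, a death receptor at 2.11 ± 0.42 CPM in the Sin3a knockdown and 0.497 ± 0.32 CPM in control, rose by 2.06 ± 0.55 on the log2 scale (adjusted p = 0.0461, range over alternatives 0.0207 to 0.153).

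Of the 3 relatives of Gfod1, 0 were called in the Fam60a knockdown by edgeR (0 at an unadjusted p under 0.05 and 0 by DESeq2). With Sin3a depleted 1 of 3 was called. The shares were 0 and 33.3%, against 2.92 and 10.2% over all tested genes. Dhdh, a dihydrodiol dehydrogenase gene, fell in the Sin3a knockdown to 9.91 ± 2.62 CPM, against 32.2 ± 2.63 CPM in control (log2 fold change -1.67 ± 0.24, adjusted p = 0.00477), where Gfod1 was higher than control. It averaged 24 ± 3.71 CPM in the Fam60a knockdown and did not pass there (adjusted p = 0.449). Gfod2, the closest relative, averaged 30.7 ± 2.52 CPM in the Fam60a knockdown, 55.2 ± 32.4 CPM in the Sin3a knockdown and 29.3 ± 3.27 CPM in control and did not pass in either (log2 fold change 0.06 ± 0.34 and 0.89 ± 0.35, adjusted p = 0.99 and 0.143).

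Calls in the 5 lists depended on single libraries. Of 73 genes, 3 were called in the Fam60a knockdown, 7 in the Sin3a knockdown and 5 between the knockdowns. Without Sin3a knockdown replicate 3 these counts were 14, 20 and 12, while the share called over all tested genes was then 16.9, 24.5 and 14.7%. Without a Fam60a knockdown library they were 0, 5 and 0 (replicate 1), 0, 6 and 0 (replicate 2) and 0, 6 and 3 (replicate 3), and without Sin3a knockdown replicate 1 or 2 they were 2, 4 and 0 or 2, 5 and 0. Without control replicate 1, 2 or 3 they were 0, 3 and 1, then 0, 3 and 2, then 0, 5 and 2. Ngfr, Dhdh and Ldhc in the Sin3a knockdown were called in all 9 of these fits. The calls of Ldhc and Tnfrsf1a in the Fam60a knockdown were lost without any 1 library of that knockdown or of control, and those of Tnfrsf10b there and of Slc16a3 in the Sin3a knockdown without any 1 library except Sin3a knockdown replicate 3. Birc3 in the Sin3a knockdown lost its call without replicate 1 or 2 of that knockdown or any 1 control, and Fas without any of these or Fam60a knockdown replicate 1. Between the knockdowns, the calls of Dhdh, Ngfr and Tnfrsf1a were lost on leaving out 7, 5 and 8 of the 9 libraries in turn.

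**Figure D5:**
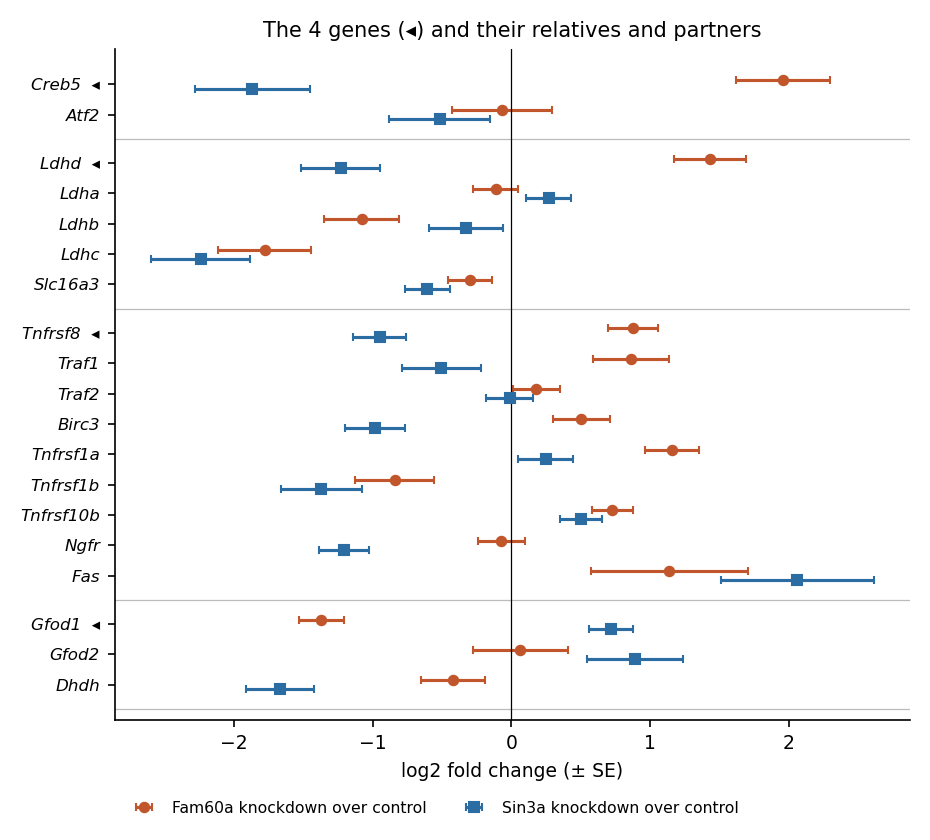
Log2 fold change with its SE (horizontal) of the 4 genes (marked by a triangle) and of relatives and partners of each, in the Fam60a knockdown (orange circles) and the Sin3a knockdown (blue squares) over control. The colours lie on opposite sides of 0 for Traf1 and Birc3 as for Tnfrsf8, while Ldhc and Slc16a3 lie left of 0 in both knockdowns. Of all tested genes, 15.2% had the signs of Tnfrsf8. Traf1 and Birc3 were called between the knockdowns, which favours opposite signs.

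The genes most like each of the 4 over the 9 libraries were found by Pearson's r of log2 CPM among 12867 protein-coding genes of at least 2 CPM on average, as a description of libraries that share their groups. Creb5 and Tnfrsf8 were each other's closest gene, with r = 0.988, and Ldhd was the third closest to Creb5 (0.973) and the next after Creb5 for Tnfrsf8 (0.976). Against Gfod1 these 3 genes had r of -0.961, -0.956 and -0.965 for Creb5, Tnfrsf8 and Ldhd. The 4 genes were chosen for their group pattern in these same 9 libraries, so r of large size among them follows from the choice. The second closest to Creb5 was Pglyrp1 (0.973), at 6.02 ± 1.46 CPM in the Fam60a knockdown, 0.287 ± 0.28 CPM in the Sin3a knockdown and 1.31 ± 0.27 CPM in control. Closest to Ldhd was Cyp11a1 (0.980), the enzyme of cholesterol side-chain cleavage, at 32.1 ± 4.14, 5.55 ± 1.73 and 9.75 ± 2.13 CPM in the same groups, and the third was the vesicular transporter gene Slc18b1 (0.975), at 46.6 ± 3.91, 24.2 ± 4.08 and 30.7 ± 2.61 CPM. Gfod1 was closest to the phosphatidylinositol kinase gene Pi4k2b (0.986), at 38.3 ± 5.55, 74.2 ± 3.83 and 59.8 ± 3.04 CPM, then to Garnl3 (0.983), a gene with a Rap GTPase-activating domain, at 18.6 ± 1.33, 58.4 ± 8.66 and 41.9 ± 4.66 CPM, and then to Tril (0.972), the neighbour of Creb5.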

How the data were processed

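Per the labels' protocols, total RNA was made into stranded TruSeq libraries and read as single ends of 50 bases. Per the submitters' processing notes STAR 2.4.0j, Picard and featureCounts of Subread were used, and per the file headers duplicate reads had been removed. The deposited values are raw counts, whole numbers of reads for each Ensembl gene. The genome build and annotation used for counting are not given in the sources used here. Gene names and positions came from GENCODE M21 (GRCm38), matched by ID for 32918 of 37990 genes and at least 99.3% of the reads of each library.

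The tests ran in edgeR 4.0.16 (R 4.3.3): filterByExpr, TMM scaling, 1 model of 3 groups and robust quasi-likelihood F-tests, with Benjamini-Hochberg adjusted p under 0.05 over 14465 genes called. Every adjusted p is from this fit unless another is named. The SE of a fold change is derived from its F statistic, log2 CPM used a prior count of 2, and the fit was tested on simulated data. The p-values set each group difference against the spread between libraries within groups, pooled over the 3 groups and with information shared across genes. DESeq2 1.42.0, other scaling, no filter, fewer libraries and leaving out each library were alternatives.

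Deviations from the group means correlated across genes with r of 0.178 to 0.622 between same-numbered libraries in 9 of 9 pairs, so the replicate number was taken to pair libraries. The main fit leaves this pairing out, so the spread it uses includes differences between replicate numbers. The fit with a replicate block is given where it changes a call of a named gene outside the marker lists.

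The 4 genes, the 5 lists and the marker lists were chosen with earlier results of these data known. The rule for named genes took the 4 genes, the hairpin targets, genes called with opposite signs, the 3 most alike genes of each, the nearest 2 protein-coding neighbours per side, called list genes and fixed relatives. Cerk, Efemp2 and Pglyrp1 were added as the genes next to the threshold, and Znrf1 was added as an overlapping gene and Spi1, Ptprc, Itgam, Cd3e, Gata1, Cd79a and Gata6 as markers. Of the genes the rule takes, 1 is not reported here.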

Additional observations from a re-analysis of the deposited data

How the results depend on the processing

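In the 15 alternatives, 0 of the fold changes of the 4 genes changed sign. With replicates 1 and 2 only, those of Gfod1 moved past the spread between replicates, to -1.21 in the Fam60a knockdown over control and -1.87 in the Fam60a knockdown over the Sin3a knockdown. Counts moved more. Genes called in the Fam60a knockdown (423) were 887 with the replicate block, 1181 with DESeq2, 1827 on the 6 libraries compared and 2450 with replicates 1 and 2 only. Those in the Sin3a knockdown (1475) were 2507 with DESeq2, 739 on 6 libraries and 4417 with replicates 1 and 2 only. Between the knockdowns (443) they were 672 with the block, 1332 with DESeq2, 2785 with replicates 1 and 2 only, and 0 by edgeR on 6 libraries, where 1760 genes had an unadjusted p under 0.05. Genes called with opposite signs (4) were 11 with the block, 18 with DESeq2, 2 with no filter and 74 with replicates 1 and 2 only. All 4 genes were among those of the block, of DESeq2 and of replicates 1 and 2, 2 of 4 remained with no filter (Creb5 and Gfod1), and 0 of 4 on 6 libraries, where 3 others were called.

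List genes called in the Fam60a knockdown (3) were 9 with DESeq2, 11 on 6 libraries and 18 with replicates 1 and 2 only. In the Sin3a knockdown (7) they were 11 with the block, 18 with DESeq2, 4 with no filter, 4 on 6 libraries and 23 with replicates 1 and 2 only, and between the knockdowns (5) 0 on 6 libraries (edgeR; 7 at an unadjusted p under 0.05, and 5 by DESeq2 on all libraries) and 15 with replicates 1 and 2 only. The block also added calls of Cerk, Cpvl and Tnfrsf1b in the Fam60a knockdown and of Efemp2 and Tnfrsf10b in the Sin3a knockdown, ended that of Slc16a3, and changed no other call of a named gene outside the marker lists. In the Sin3a knockdown the block gave 1 CREB5 partner, 2 CD30 pathway genes, 5 TNF receptor genes and 2 fibroblast markers called. In the Fam60a knockdown the block gave 3 TNF receptor genes called. Leaving out 1 library gave 11 to 2495 genes called in the Fam60a knockdown, 521 to 3606 in the Sin3a knockdown and 48 to 2166 between them, 0 to 58 with opposite signs, and 0 to 4 of the 4 genes among these. It gave 0 to 14, 3 to 20 and 0 to 12 list genes in the 3 comparisons. In the Fam60a knockdown the fold changes then ranged from 1.74 to 2.20 (Creb5), 1.33 to 1.56 (Ldhd), 0.80 to 0.97 (Tnfrsf8) and -1.45 to -1.27 (Gfod1). In the Sin3a knockdown they ranged from -2.14 to -1.62, -1.32 to -1.07, -1.02 to -0.84 and 0.60 to 0.84, and between the knockdowns from 3.61 to 4.13, 2.52 to 2.79, 1.76 to 1.88 and -2.19 to -1.96, in the same gene order. The cause of these shifts was not tested. Depth limits Creb5 most, with 14 reads over the Sin3a knockdown.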
